A study of Mus musculus with 45 samples.

Results

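The 40 genes described here encode the sensors and transcription factors of the unfolded protein response and the machinery that brings proteins into the endoplasmic reticulum (ER), folds them there and removes those that misfold. Their choice rests on a list of gene symbols and on no measured value as a criterion, but earlier results of these data were known. All 40 were found among the 23227 genes of the deposited tables of read counts from mouse liver. All 40 passed the filter on low counts, which kept 14067 genes. By role, 4 were sensors and transcription factors, 10 belonged to the Hsp70 and Hsp90 chaperone system and 9 were disulfide isomerases or lectin chaperones. Another 9 were grouped under ER-associated degradation (ERAD), and 8 formed the translocon, its associated TRAP complex or the signal peptidase.

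The livers came from wild-type C57BL/6J mice that were all 24 weeks old and had been starved overnight. The mice had eaten a high-fat diet (HFD) for 16 weeks, begun at 8 weeks of age, HFD for 6 weeks, begun at 18 weeks of age, or chow. The length of the diet and the age at its start therefore cannot be told apart. Metformin was given in the drinking water at 270 mg per kg of lean body mass per day on each of the 3 diets, begun at 8 or 18 weeks of age, and untreated livers are called basal. Insulin was injected intraperitoneally at 1 U/kg on 16-week HFD and on chow, and livers were taken 15, 30, 60 or 120 min later. Each of the 14 groups was made up of 3 libraries, but the 16-week HFD livers taken 30 min after insulin gave 6. By the series' design every group had 3 or more mice. No label ties a library to a mouse, so that p-values here measure only the spread between these samples.

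Secreted and membrane proteins enter the ER through the Sec61 channel, where the signal peptide is cut off and the chain is glycosylated, disulfide-bonded and folded by chaperones such as BiP, the product of Hspa5. When unfolded proteins accumulate, IRE1, PERK and ATF6 in the ER membrane signal to the nucleus: IRE1 splices the mRNA of the transcription factor XBP1, PERK slows translation, and ATF6 is cut to release a transcription factor. XBP1 and ATF6 raise the transcription of chaperones, disulfide isomerases and ERAD genes. Hepatocytes secrete most plasma proteins and are rich in ER, and obesity is known to alter ER function in the liver. Splicing of Xbp1 mRNA and phosphorylation of IRE1 or PERK were not measured, because counts per gene show the amount of mRNA only.

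The ER stress response element (ERSE), to which ATF6 and XBP1 bind together with NF-Y, was searched for as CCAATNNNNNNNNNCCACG on both strands of the RefSeq promoter windows of build GRCm38.p6, which run from 250 bases before to 50 bases after a gene's start. Of the 40 genes, 31 had a window, and 9 of these 31 (29.0%) held an ERSE, against 0.119% of all 32851 windows and 0.137% of the 27025 genes with one. The 9 genes were Hspa5, Hsp90b1, Dnajc3, Pdia6, Creld2, Calr, Canx, Derl3 and Syvn1. The shorter ERSE-II (ATTGGNCCACG) was found in Dnajb11 and Herpud1, which are 6.45% of the 31 genes. It was in 0.0444% of all genes with a window and in 0.0365% of all windows. CCACG alone, which is part of both elements, was found for 23 of the 31 genes (74.2%). It was found for 35.5% of all genes with a window and in 32.8% of all windows. The letters TGACGTGG, the core of the unfolded protein response element, were found for none of the 31 genes. They were found for 0.714% of all genes with a window and in 0.676% of all windows. Manf, Sec61a1, Derl1, Ssr2, Hyou1, Atf6, Sil1, Sec11c and Erp29 had no window.

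The sites themselves show how the fixed ends of the ERSE enclose a spacer that differs in every gene. They are written 5′ to 3′ in the direction of the element, with its fixed letters in capitals. Hsp90b1 carried a pair of sites, and the sites of Calr, Creld2 and Derl3 and the second site of Hsp90b1 lay on the strand opposite to the gene. The 2 ERSE-II sites close the list.
Hspa5: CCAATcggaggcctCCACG
Hsp90b1, first site: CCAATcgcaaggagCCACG
Hsp90b1, second site: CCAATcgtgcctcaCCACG
Dnajc3: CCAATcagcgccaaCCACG
Pdia6: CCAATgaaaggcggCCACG
Creld2: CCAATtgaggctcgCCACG
Calr: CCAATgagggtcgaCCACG
Canx: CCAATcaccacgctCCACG
Derl3: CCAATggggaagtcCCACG
Syvn1: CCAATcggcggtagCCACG
Dnajb11, ERSE-II: ATTGGcCCACG
Herpud1, ERSE-II: ATTGGgCCACG

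The 250 bases upstream of the start are shown for 4 ERSE genes that the results below return to: a chaperone, a disulfide isomerase-like protein, a derlin and a ubiquitin ligase. All 4 genes lie on the plus strand, the sequences are RefSeq's in build GRCm38.p6, and capitals mark the 19 bases of the ERSE as read on the gene's strand. A match to these letters is a description of the sequence and does not show binding.
Hspa5, chr2:34771840-34772089: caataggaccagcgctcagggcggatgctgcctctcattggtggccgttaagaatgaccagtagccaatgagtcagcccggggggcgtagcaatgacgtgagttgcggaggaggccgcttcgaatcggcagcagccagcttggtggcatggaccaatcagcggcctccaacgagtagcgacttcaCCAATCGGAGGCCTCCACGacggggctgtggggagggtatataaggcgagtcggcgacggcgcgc
Creld2, chr15:88819396-88819645: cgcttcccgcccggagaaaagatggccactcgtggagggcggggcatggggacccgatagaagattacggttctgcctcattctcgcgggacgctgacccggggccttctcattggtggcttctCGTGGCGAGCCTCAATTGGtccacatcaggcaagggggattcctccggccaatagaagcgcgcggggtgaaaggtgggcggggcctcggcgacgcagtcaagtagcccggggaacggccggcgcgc
Derl3, chr10:75893148-75893397: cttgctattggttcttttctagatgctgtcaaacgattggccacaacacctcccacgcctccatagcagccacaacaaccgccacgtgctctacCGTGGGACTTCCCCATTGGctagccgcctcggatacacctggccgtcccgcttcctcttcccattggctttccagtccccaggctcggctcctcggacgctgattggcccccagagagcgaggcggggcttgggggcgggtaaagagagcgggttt
Syvn1, chr19:6046326-6046575: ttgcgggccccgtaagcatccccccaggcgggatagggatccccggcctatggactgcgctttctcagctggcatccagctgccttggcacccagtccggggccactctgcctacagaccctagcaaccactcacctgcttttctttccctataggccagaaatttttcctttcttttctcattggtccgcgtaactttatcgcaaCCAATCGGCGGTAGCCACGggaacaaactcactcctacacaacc

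Libraries held 18.2 to 50.3 M counted reads, and the lowest count of any of the 40 genes in a library was 13. Levels are given as CPM, counts scaled to the size of the library and by TMM, and changes as log2 fold changes ± standard error (SE) from edgeR's quasi-likelihood fit of all 45 libraries. A gene was called changed at a Benjamini-Hochberg adjusted p below 0.05 over all 14067 genes, and n was 3 libraries per group unless stated. The summed level of 6 hepatocyte markers was 63994 CPM or more in every library. The summed level of 12 pancreatic acinar markers reached 18887 CPM on 16-week HFD in replicate 3 at 15 min and 7432 CPM in replicate 2 at 30 min after insulin, and was 2788 CPM or less in every other library. In whole liver, fewer cells of a type and less RNA per cell cannot be told apart. Some counts are uncertain: over 20% of the 40-base words of Erp29 (25.8%) and Sec61b (20.5%) also occur in other transcripts, and strand is not kept by the library kit, so that reads of Pdia6 and Atp6v1c2, and of Syvn1 and Mrpl49, cannot be told apart where these pairs overlap.

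Chaperones and isomerases dominated the mRNA of these 40 genes in chow basal liver. Per kilobase of exon, the highest levels were those of P4hb, the classical protein disulfide isomerase, at 476 ± 22.9 CPM per kb (mean ± SD), Hsp90b1, the ER form of Hsp90, at 395 ± 84.1 CPM per kb, and Hspa5 at 386 ± 112 CPM per kb. Herpud1, a membrane partner of the ERAD ubiquitin ligase, followed at 365 ± 28.3 CPM per kb. The SDs of these 4 genes overlap in part, so that their order is not firm. Xbp1 stood at 88.8 ± 4.32 CPM per kb. The lowest were Derl3 at 3.95 ± 1.64, Eif2ak3, which encodes PERK, at 3.31 ± 0.474, and Wfs1, which encodes the ER membrane protein wolframin, at 1.7 ± 0.189 CPM per kb.

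After 16 weeks of HFD, basal livers held more mRNA of a large share of these genes than chow livers. Of the 40 genes, 19 were higher and 1 was lower, where 16% of all tested genes were called higher and 16.3% lower. The median log2 fold change was 0.41 over the 40 genes and 0.02 over all tested genes. In 18 of the 40 genes every 16-week HFD library lay above every chow library, as was so for 23.5% of all tested genes. The rises were spread over the roles. Higher were 6 of 9 disulfide isomerases and lectin chaperones, 6 of 9 ERAD genes and 3 of 10 chaperones. So were 3 of 8 translocon genes and 1 of 4 sensors and transcription factors.

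Among the sensors, Eif2ak3 (chr6:70794521-70855234, plus strand in mm9) had 29.3, 25.8 and 28.8 CPM in 16-week HFD livers, against 13.4, 17.3 and 13.9 CPM in chow livers. All 3 HFD libraries lay above all 3 chow libraries, and the change was 0.92 ± 0.23 (adjusted p = 0.00217). The other sensors and the transcription factor Xbp1 did not pass the test. Ern1, which encodes IRE1, had 31, 38 and 34.5 CPM in 16-week HFD livers, against 31.3, 32.4 and 31.7 CPM in chow livers, and its change was 0.12 ± 0.25 (adjusted p = 0.752). Xbp1 had 247, 194 and 155 CPM in 16-week HFD livers, against 152, 167 and 161 CPM in chow livers. One HFD library of Xbp1 fell inside the chow range, and the change was 0.31 ± 0.16 (adjusted p = 0.127). Atf6 changed by 0.13 ± 0.16 (adjusted p = 0.573).

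Among the chaperones, Hyou1, Sdf2l1 and Manf rose, all partners of BiP, while BiP's own gene did not pass. Hyou1 (chr9:44187573-44200452, plus strand in mm9), the nucleotide exchange factor of BiP also known as Grp170, had 513, 315 and 282 CPM in 16-week HFD livers, against 142, 201 and 139 CPM in chow livers. All HFD libraries lay above the chow range, with a change of 1.21 ± 0.33 (adjusted p = 0.00536). Sdf2l1, a partner of the BiP co-chaperones, had 90.6, 34 and 31 CPM in 16-week HFD livers, against 13.9, 25.4 and 14.4 CPM in chow livers, again without overlap. It changed by 1.54 ± 0.46 (adjusted p = 0.0091). Manf, an ER protein that binds BiP and can be secreted, changed by 0.87 ± 0.29 (adjusted p = 0.0206), with 198, 108 and 91.8 CPM in 16-week HFD livers and 61.5, 94.1 and 61.9 CPM in chow livers. Hspa5 itself had 2204, 1193 and 1209 CPM in 16-week HFD livers, against 832, 1349 and 850.1 CPM in chow livers. Its groups overlapped, and its change of 0.60 ± 0.29 did not pass (adjusted p = 0.111). Dnajb9, also known as ERdj4, a co-chaperone of BiP that restrains IRE1, had 87.3, 67.7 and 87.4 CPM in 16-week HFD livers, against 70.9, 91.5 and 73.4 CPM in chow livers, and its change was 0.04 ± 0.21 (adjusted p = 0.908).

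The isomerases and lectin chaperones were led by Creld2 (chr15:88650076-88657111, plus strand in mm9), an ER protein with isomerase-like activity that is induced by ER stress. It had 223, 108 and 92.2 CPM in 16-week HFD livers, against 38.7, 64.5 and 37.5 CPM in chow livers. No library overlapped, and the change was 1.59 ± 0.38 (adjusted p = 0.00136). Erp29, a folding factor of the isomerase family without a redox-active site, changed by 0.40 ± 0.09 (adjusted p = 0.00136), and P4hb by 0.42 ± 0.12 (adjusted p = 0.00575). Pdia4, Pdia6 and the lectin chaperone Calr were also called higher, with changes of 0.78, 0.69 and 0.59. The 3 that did not pass were Pdia3 (0.27 ± 0.20), Canx (0.24 ± 0.13) and Erp44 (0.09 ± 0.12).

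The smallest adjusted p of the 40 genes was that of Wfs1, which was grouped here with ERAD. Wfs1 (chr5:37357343-37380221, minus strand in mm9), the gene of Wolfram syndrome, had 13.4, 13.1 and 12.7 CPM in 16-week HFD livers, against 6.76, 5.98 and 5.41 CPM in chow livers. The HFD values were close together and above every chow value, and the change was 1.10 ± 0.18 (adjusted p = 1.96e-05). Edem1, which helps to direct misfolded glycoproteins to degradation, changed by 0.67 ± 0.14 (adjusted p = 0.000259). Syvn1, the ubiquitin ligase also called HRD1, had 326, 179 and 160.3 CPM in 16-week HFD livers, against 78.2, 100.5 and 69.6 CPM in chow livers, a change of 1.42 ± 0.34 (adjusted p = 0.00158). Herpud1 changed by 0.79 ± 0.23 (adjusted p = 0.00924), with 1538, 1021 and 986 CPM in 16-week HFD livers and 722, 705 and 623 CPM in chow livers. Sel1l, the adaptor of HRD1, and Derl3 were called higher as well, Derl3 at 44.5, 11.5 and 8.2 CPM against 3.4, 7.69 and 4.72 CPM in chow livers. Derl1, another derlin, went the other way: it had 152, 128 and 127 CPM in 16-week HFD livers, against 158, 163 and 178 CPM in chow livers, and its change was -0.30 ± 0.10 (adjusted p = 0.0219). For Derl2, which did not pass, the change was 0.01 ± 0.12.

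In the translocon, Sec61b and Sec61a1, which encode the β and α subunits of the channel, and Ssr1, a subunit of TRAP, rose. Sec61b had 36.6, 29.5 and 25.4 CPM in 16-week HFD livers, against 18.8, 22 and 20.2 CPM in chow livers. Its change was 0.59 ± 0.12 (adjusted p = 0.000197), that of Ssr1 was 0.44 ± 0.09 (adjusted p = 0.000347) and that of Sec61a1 was 0.59 ± 0.15 (adjusted p = 0.00243). All HFD libraries of these 3 genes lay above their chow ranges. The remaining 5 genes were not called and ranged between -0.24 for Ssr4 and 0.15 for Ssr3.

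The size of this difference rested in part on one library. Replicate 1 of 16-week HFD was the highest of its 3 libraries in 36 of the 40 genes, and its mean deviation over the 40 genes from their means was 0.647 on the log2 scale, against 0.136 and 0.066 in the other 2. Without it, 11 genes were called in place of 20 and the median change was 0.22. Without chow replicate 3, 13 were called. The diets also differed in a trend over all genes, the correlation of the level relative to the mean library with GC content. It was 0.17 to 0.32 in 16-week HFD livers and -0.29 to -0.08 in chow livers, without overlap. The acinar marker sum was 22.5 CPM in HFD replicate 1 and 9.88 to 176 CPM over all HFD livers, with Prss1 at 0 in each of them, against 295 to 1833 CPM in chow livers. Of these 12 markers, 0 were called between the diets. Of 6 stellate cell and fibroblast markers, 2 were called higher on 16-week HFD, the collagen genes Col1a1 (2.65 ± 0.63) and Col3a1 (1.87 ± 0.47), and 1 lower. Their sum was 187 to 410.2 CPM in HFD livers and 293 to 302 CPM in chow livers, and none was at 0. Of 6 hepatocyte markers 1 was called higher and 1 lower, and of 6 skeletal muscle markers 4 were called lower. The muscle sums were at most 0.968 CPM in HFD livers, where Myh1 and Tnnt3 were at 0. In chow livers they were 145 CPM in replicate 1 and only 1.23 and 0.584 CPM in replicates 2 and 3. None of the 8 macrophage, 6 endothelial and 7 plasma and B cell markers was called. The part of these cells in the result was not tested.

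**Figure D1:**
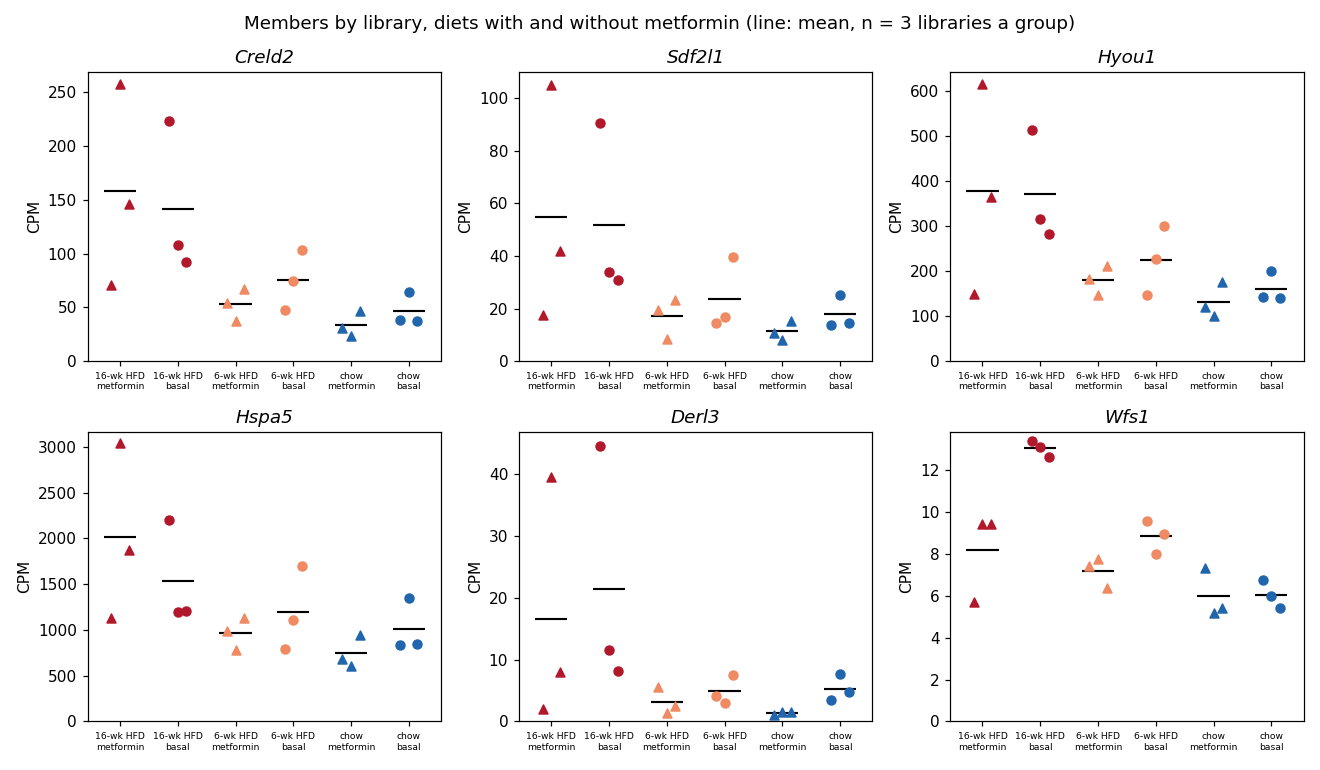
CPM (linear axis) of members of the unfolded protein response and ER folding list in each basal and metformin library, with points for libraries and lines for means of 3 libraries. Creld2 reached 223 CPM in 16-week HFD basal and 257 CPM in 16-week HFD metformin livers, against at most 64.5 CPM in chow basal livers, and the libraries within the 16-week HFD groups were spread widely.

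After 6 weeks of HFD few of the genes passed the test. Wfs1 (0.54 ± 0.18, adjusted p = 0.0463) and Ssr1 (0.28 ± 0.09, adjusted p = 0.0423) were higher, and Derl1 (-0.35 ± 0.10, adjusted p = 0.0198) was lower than on chow. These 3 of 40 stand beside 11% of all tested genes called in either direction, so that the count was below the background. The fold change was positive in 33 of the 40 genes, with a median of 0.19, but libraries differed within the group. Creld2 had 47.9, 74.7 and 103 CPM and Hspa5 787, 1104 and 1695 CPM in 6-week HFD livers, against 38.7, 64.5 and 37.5 and 832, 1349 and 850.1 CPM in chow livers. Both ranges overlapped. The changes of the branch markers were 0.24 ± 0.29 for Hspa5, 0.68 ± 0.37 for Creld2, 0.41 ± 0.45 for Sdf2l1, 0.49 ± 0.33 for Hyou1, 0.06 ± 0.21 for Dnajb9, 0.45 ± 0.23 for Herpud1, 0.33 ± 0.16 for Xbp1 and 0.07 ± 0.25 for Ern1, and none of these 8 was called. Set directly against 6 weeks, 16 weeks of HFD was higher in 3 of the 40 genes, where 10.2% of all tested genes were called in either direction. These were Derl3 at 2.13 ± 0.66 (adjusted p = 0.0343), Wfs1 at 0.56 ± 0.18 (adjusted p = 0.0363) and Erp29 at 0.29 ± 0.09 (adjusted p = 0.0406). Wfs1 had 13.4, 13.1 and 12.7 CPM after 16 weeks and 9.58, 7.99 and 8.96 CPM after 6 weeks, with no overlap. The branch markers ranged between -0.02 for Dnajb9 and 1.13 for Sdf2l1 in this comparison, and none of the 8 was called. Leaving out single libraries gave 0 to 2 calls after 6 weeks, with 0 without 6-week replicate 1 or 2 or chow replicate 3 and 1 without chow replicate 1 or 2. Between the diet lengths it gave 0 to 3, with 0 without 6-week replicate 1 or 2 or 16-week replicate 1 and 1 without 16-week replicate 2. Skeletal muscle marker sums were 3.68 to 1197 CPM in 6-week HFD livers and 0.584 to 145 CPM in chow livers. The muscle marker Myh4 (8.43 ± 2.27) and the stellate cell marker Des (1.84 ± 0.56) were called higher after 6 weeks. Acinar marker sums were 13 to 144 CPM in 6-week HFD livers and 295 to 1833 CPM in chow livers. The part of these cells in the result was not tested.

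In livers of metformin-treated mice, 16 weeks of HFD went with a rise of most of these genes. These libraries are separate from the basal ones. Of the 40 genes, 30 were higher and 0 lower than in chow livers with metformin, where 11.2% of all tested genes were called higher and 9.25% lower. The median change was 0.54 over the 40 genes and 0.02 over all tested genes. In 21 of the 40 every 16-week HFD library lay above every chow library, as was so for 14.4% of all tested genes. By role, 9 of 9 isomerases and lectin chaperones, 8 of 10 chaperones and 6 of 9 ERAD genes were higher. So were 5 of 8 translocon genes and 2 of 4 sensors and transcription factors.

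Hspa5, which had not passed the test between basal livers, did so here, but the interaction term given below did not call it. It had 1129, 3041 and 1876 CPM in 16-week HFD livers, against 681, 604 and 945 CPM in chow livers, and the change was 1.44 ± 0.30 (adjusted p = 0.000846). Dnajb9 had 54.4, 145 and 122 CPM in 16-week HFD livers, against 46.9, 49.7 and 62.1 CPM in chow livers, a change of 1.02 ± 0.21 (adjusted p = 0.00101). For Hspa5 all HFD libraries lay above the chow range, while for Dnajb9 the lowest HFD library lay within it. Manf had 116, 255 and 155 CPM in 16-week HFD livers, against 46.6, 43.8 and 79.2 CPM in chow livers, with no overlap and a change of 1.63 ± 0.30 (adjusted p = 0.000238). Sdf2l1 had 17.7, 105 and 42 CPM in 16-week HFD livers, against 10.8, 8.24 and 15.5 CPM in chow livers, a change of 2.25 ± 0.47 (adjusted p = 0.00101). Hyou1 changed by 1.51 ± 0.34 (adjusted p = 0.00178), but its lowest HFD library, at 150.1 CPM, lay within the chow range.

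Creld2 had 70.7, 257 and 146 CPM in 16-week HFD livers, against 30.5, 23.3 and 47.1 CPM in chow livers. The groups did not overlap, and the change was 2.23 ± 0.39 (adjusted p = 0.000132). Erp29 changed by 0.51 ± 0.10 (adjusted p = 0.000284) and Pdia6 by 1.11 ± 0.24 (adjusted p = 0.00125). Among the ERAD genes Derl2 had 124, 103 and 93.9 CPM in 16-week HFD livers, against 64.2, 71 and 78.8 CPM in chow livers, with a change of 0.58 ± 0.12 (adjusted p = 0.000781). Herpud1 changed by 1.14 ± 0.24 (adjusted p = 0.000887) and Derl3 by 3.60 ± 0.78 (adjusted p = 0.00133). The level of Derl3 was low, at 1.97, 39.5 and 7.96 CPM on 16-week HFD and 1.1, 1.5 and 1.48 CPM on chow, and the HFD libraries were spread far apart.

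Of the sensors and transcription factors, Eif2ak3 (0.98 ± 0.23, adjusted p = 0.00295) and Xbp1 (0.48 ± 0.16, adjusted p = 0.0268) were called. Ern1 was not, with 7.75, 40.9 and 28.9 CPM in 16-week HFD livers, against 29.6, 34.5 and 39.2 CPM in chow livers and a change of -0.41 ± 0.25 (adjusted p = 0.259). In the translocon Sec61b had 58.1, 52.8 and 42 CPM in 16-week HFD livers, against 31.1, 28.9 and 30.9 CPM in chow livers, and its change was 0.75 ± 0.12 (adjusted p = 3.7e-05). Ssr2 and Ssr1, subunits of TRAP, changed by 0.49 ± 0.09 (adjusted p = 0.000362) and 0.34 ± 0.09 (adjusted p = 0.00786). After 6 weeks of HFD with metformin, 0 of the 40 genes were called against chow with metformin by edgeR and by DESeq2, where 4.43% of all tested genes were called by edgeR. At an unadjusted p below 0.05 there were 4. The branch markers ranged between 0.02 and 0.65 there.

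Here the spread on HFD was wide. Replicate 2 of 16-week HFD with metformin was the highest of its 3 libraries in 30 of the 40 genes, and without it 19 were called in place of 30. Replicate 1 was the lowest of the 3 in 29 of the 40 genes. Over all genes, its level relative to the mean library correlated with exon length at -0.61, the lowest value of any library. A fit of only the groups compared, with 6 libraries, called none. The summed hepatocyte markers stood at 110900 to 131060 CPM in these HFD livers and 94094 to 100780 CPM in the chow livers, with 1 of 6 markers called higher and 1 lower. Of the other cell types, 1 of 7 plasma and B cell markers was called higher and 1 of 6 endothelial markers lower. The part of these in the result was not tested.

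**Figure D2:**
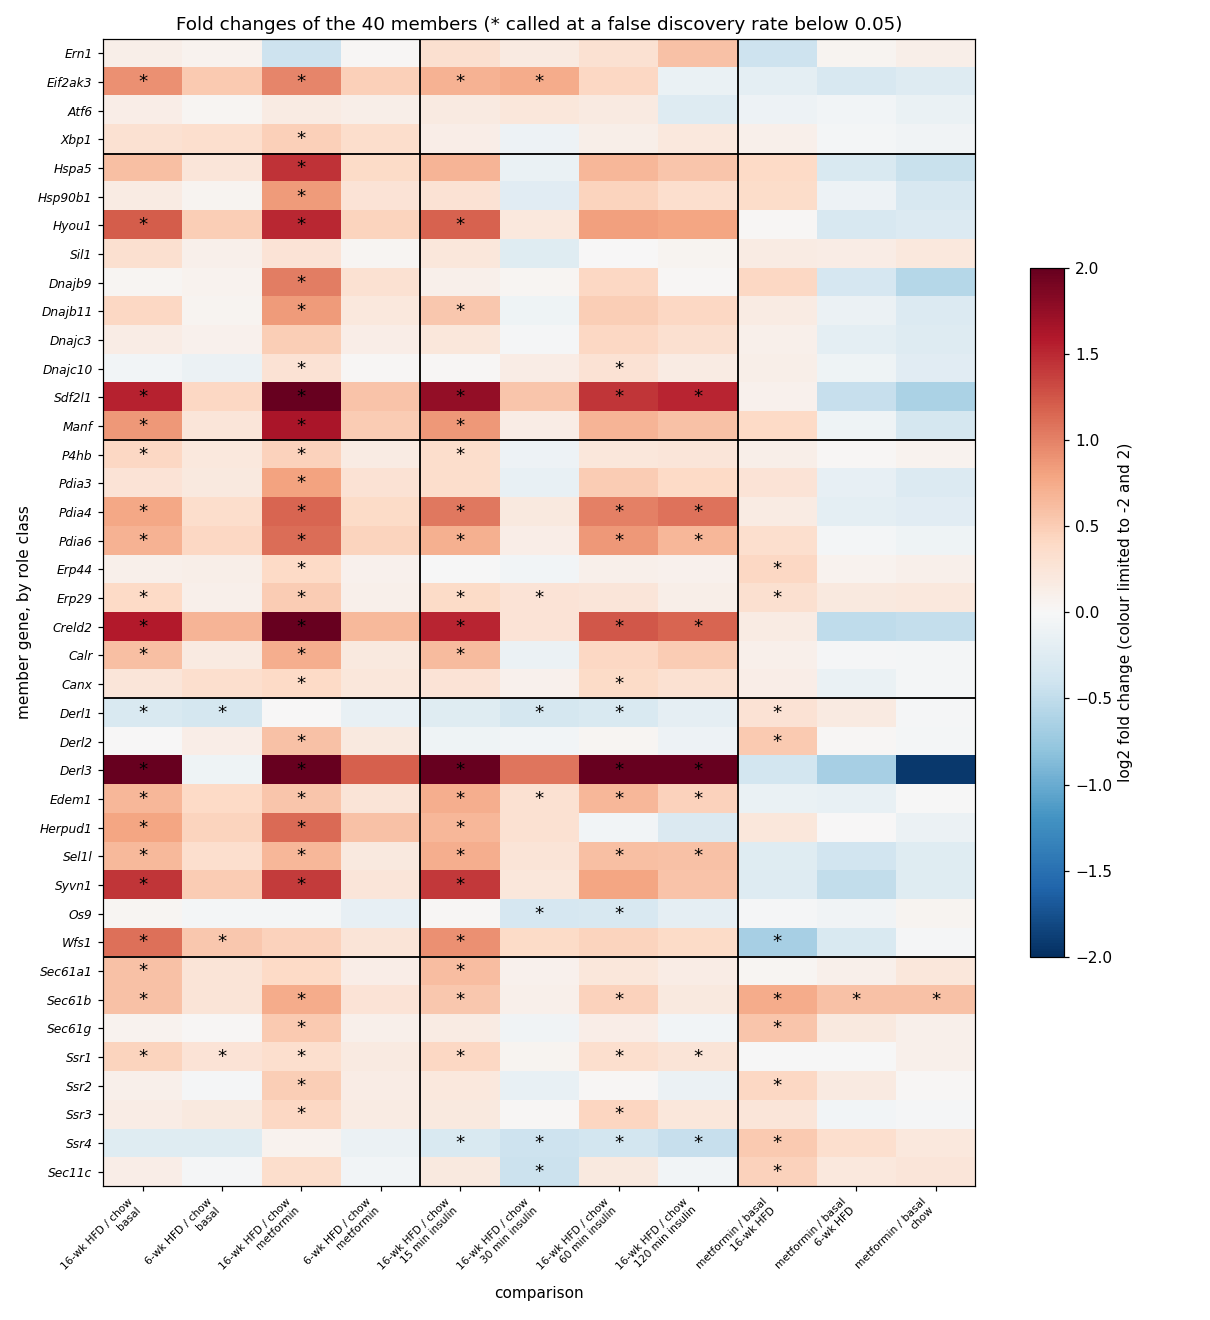
Log2 fold changes of the 40 genes (rows, ordered by role with lines between the roles) in diet and metformin comparisons (columns), shown as colour limited to -2 and 2, with an asterisk where the adjusted p is below 0.05. The isomerases and lectin chaperones are called higher in 9 of 9 genes for 16-week HFD against chow under metformin.

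Metformin itself moved few of these genes. On chow 1 of 40 was higher, where 1.94% of all tested genes were called in either direction, and on 6-week HFD again 1 was higher, where 3.17% were. Both times it was Sec61b. It had 31.1, 28.9 and 30.9 CPM with metformin and 18.8, 22 and 20.2 CPM without it on chow, a change of 0.58 ± 0.12 (adjusted p = 0.00472). On 6-week HFD it had 32.8, 38.1 and 38.6 CPM with metformin and 23.6, 25.5 and 23.9 CPM without it, a change of 0.59 ± 0.12 (adjusted p = 0.00299). The groups did not overlap on either diet. With the trend in exon length removed, the call on 6-week HFD was lost (0.34, adjusted p = 0.124) and that on chow kept (0.47, adjusted p = 0.0177). The median change over the 40 genes was -0.06 on chow and -0.06 on 6-week HFD. On chow the branch markers changed by -0.44 ± 0.29 (Hspa5), -0.48 ± 0.37 (Creld2), -0.63 ± 0.46 (Sdf2l1), -0.28 ± 0.33 (Hyou1), -0.57 ± 0.21 (Dnajb9), -0.12 ± 0.23 (Herpud1), -0.07 ± 0.16 (Xbp1) and 0.12 ± 0.25 (Ern1), none of them called. On 6-week HFD they changed by -0.30 ± 0.29 (Hspa5), -0.51 ± 0.37 (Creld2), -0.47 ± 0.45 (Sdf2l1), -0.32 ± 0.33 (Hyou1), -0.33 ± 0.21 (Dnajb9), 0.01 ± 0.23 (Herpud1), -0.04 ± 0.16 (Xbp1) and 0.06 ± 0.25 (Ern1), again none called.

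On 16-week HFD metformin went with higher levels of 9 of the 40 genes and a lower level of 1. Of all tested genes, 16.9% were called higher and 11.5% lower. The count of higher genes was thus near the background and that of lower genes below it. By role, 5 of 8 translocon genes, 2 of 9 isomerases and lectin chaperones, 2 of 9 ERAD genes and 0 of 10 chaperones were higher. Of the 5 translocon genes, 4 lost the call when the trend in exon length was removed, and Sec61b kept it (0.36, adjusted p = 0.0229). Sec61b had 58.1, 52.8 and 42 CPM in metformin-treated livers, against 36.6, 29.5 and 25.4 CPM in basal livers, and its change was 0.74 ± 0.12 (adjusted p = 3.99e-05). Ssr4, the TRAP δ subunit, had 81.6, 74.7 and 65.4 CPM in metformin-treated livers, against 65.2, 49.1 and 40.6 CPM in basal livers, a change of 0.52 ± 0.11 (adjusted p = 0.000646). Ssr2 changed by 0.42 ± 0.09 (adjusted p = 0.00125), Sec61g, the γ subunit of the channel, by 0.56 ± 0.15 (adjusted p = 0.00444), and Sec11c, a catalytic subunit of the signal peptidase, by 0.47 ± 0.17 (adjusted p = 0.034).

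Beside these, Derl2 had 124, 103 and 93.9 CPM in metformin-treated livers, against 89.1, 68.2 and 64.9 CPM in basal livers, with no overlap and a change of 0.53 ± 0.12 (adjusted p = 0.0013). Derl1 rose by 0.29 ± 0.10 (adjusted p = 0.0309). Erp44, which retains other proteins in the ER through thiol bonds, rose by 0.42 ± 0.12 (adjusted p = 0.00699) and Erp29 by 0.32 ± 0.09 (adjusted p = 0.0112). The gene that fell was Wfs1, with 5.72, 9.42 and 9.41 CPM in metformin-treated livers, against 13.4, 13.1 and 12.7 CPM in basal livers. All metformin libraries lay below all basal ones, and the change was -0.67 ± 0.18 (adjusted p = 0.0057). The branch markers did not pass: Hspa5 changed by 0.39 ± 0.29, Creld2 by 0.16 ± 0.37, Sdf2l1 by 0.09 ± 0.44, Hyou1 by 0.03 ± 0.33, Dnajb9 by 0.41 ± 0.21, Herpud1 by 0.23 ± 0.23, Xbp1 by 0.10 ± 0.16 and Ern1 by -0.41 ± 0.25. The 3 metformin libraries of Ern1 lay far apart, at 7.75, 40.9 and 28.9 CPM.

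Transcript length moved with this comparison. Across the 40 genes, the change with metformin on 16-week HFD and exon length had a Spearman correlation of -0.61 (a description over genes measured in the same libraries). Of the 7 genes with exons under 1300 bases, 6 were called higher, with a median change of 0.47, and of the other 33 genes 3 were, with a median of 0.12. Over all genes, the level relative to the mean library correlated with exon length at -0.61 to -0.13 in the 9 metformin libraries and at -0.22 to 0.29 in the other 36. With the length trend removed, 7 genes were called, 5 of the 10 reported ones among them, and Erp29, Sec61g, Ssr2, Ssr4 and Sec11c were no longer called. With the trend in GC content removed too, 5 were called, and Erp29 turned to -0.03. A fit of only the groups compared called none, without metformin replicate 1 or basal replicate 2 the count was 6, and without both libraries numbered 1 it was 20. The summed hepatocyte markers stood at 110900 to 131060 CPM with metformin and 78047 to 98467 CPM without it, with 5 of 6 markers called higher, and 3 of 6 endothelial and 3 of 6 stellate cell markers were called lower. Of 7 plasma and B cell markers, 2 were called higher, Igj (1.51 ± 0.39) and 2010001M09Rik (2.04 ± 0.61), with sums of 5.14 to 12.2 CPM with metformin and 4 to 5.03 CPM without it. None of these markers was at 0 in either group. The part of these in the result was not tested.

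**Figure D3:**
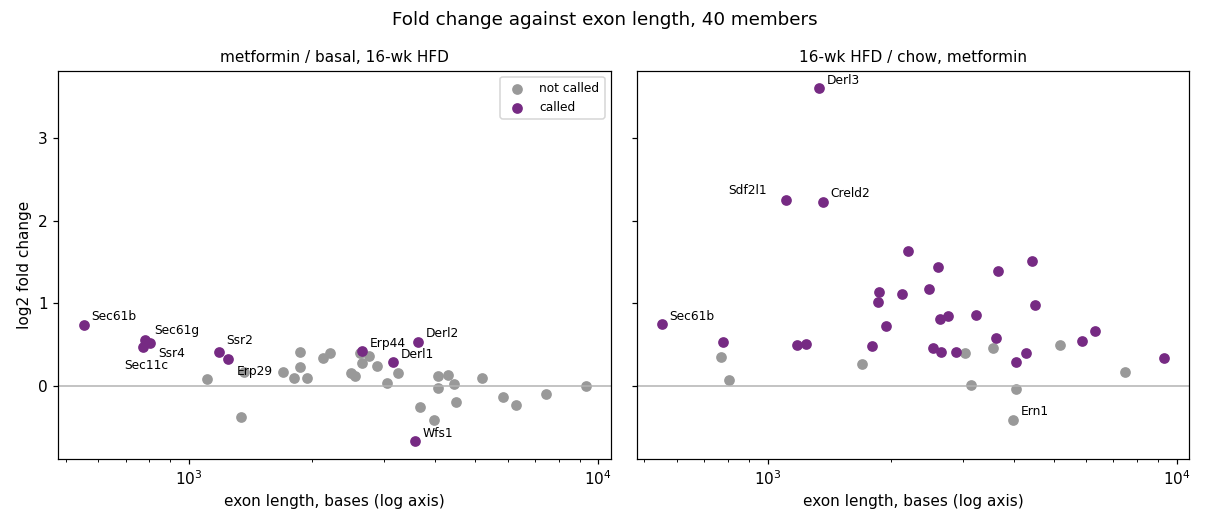
Log2 fold change of each of the 40 genes (points, purple where called at an adjusted p below 0.05) against its exon length in bases (log axis), for metformin against basal on 16-week HFD (left) and for 16-week HFD against chow under metformin (right). On the left the short genes Sec61b, Sec61g, Ssr4 and Sec11c stand among the highest, and 6 of the 7 genes under 1300 bases are called higher.

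Whether metformin acted differently on HFD than on chow was tested with an interaction term. For 16-week HFD, 2 of the 40 genes were called, which is near the 4.96% of all tested genes. Derl2 had an interaction of 0.57 ± 0.17 (adjusted p = 0.0432) and Dnajb9 of 0.98 ± 0.30 (adjusted p = 0.0489). For Dnajb9 the values were 54.4, 145 and 122 CPM with metformin and 87.3, 67.7 and 87.4 CPM without it on 16-week HFD, and 46.9, 49.7 and 62.1 CPM with metformin and 70.9, 91.5 and 73.4 CPM without it on chow. Metformin libraries lay below all basal ones on chow and spread over a wider range on HFD. With same-numbered metformin and basal libraries as pairs, which deviated together on HFD and not on chow, Dnajb9 was no longer called (adjusted p = 0.0582). For 6-week HFD, 0 of the 40 were called by edgeR and by DESeq2, 0 had an unadjusted p below 0.05 in edgeR, and 0.0427% of all tested genes were called.

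The diet difference was also present in livers taken after insulin, from libraries that share none with the basal comparison. Averaged over 15, 30, 60 and 120 min, 26 of the 40 genes were higher and 3 lower on 16-week HFD than on chow, where 31.9% of all tested genes were called higher and 27.5% lower. The median change was 0.26 over the 40 genes and 0.03 over all tested genes. By role, 8 of 9 isomerases and lectin chaperones, 7 of 10 chaperones and 5 of 9 ERAD genes were higher. So were 4 of 8 translocon genes and 2 of 4 sensors and transcription factors. The 3 that were lower were Ssr4 (-0.39 ± 0.05, adjusted p = 9.13e-08), Derl1 (-0.27 ± 0.05, adjusted p = 1.45e-05) and Os9, an ERAD lectin (-0.20 ± 0.05, adjusted p = 0.00181).

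The ERAD genes Edem1 (0.54 ± 0.07, adjusted p = 1.79e-08), Derl3 (2.40 ± 0.35, adjusted p = 4.75e-07) and Wfs1 (0.53 ± 0.09, adjusted p = 4.06e-06) had the smallest adjusted p of their class. Among the isomerases, Pdia4 changed by 0.83 ± 0.14 (adjusted p = 3.23e-06), Creld2 by 1.05 ± 0.18 (adjusted p = 7.94e-06) and Erp29 by 0.25 ± 0.05 (adjusted p = 1.63e-05). Sdf2l1 changed by 1.32 ± 0.22 (adjusted p = 5.54e-06), Hyou1 by 0.75 ± 0.16 (adjusted p = 0.000144) and Manf by 0.57 ± 0.14 (adjusted p = 0.000825). In the translocon, Ssr1 (0.26 ± 0.04), Sec61b (0.33 ± 0.06) and Sec61a1 (0.27 ± 0.07) were higher. Of the sensors, Eif2ak3 (0.43 ± 0.11, adjusted p = 0.00117) and Ern1 (0.35 ± 0.12, adjusted p = 0.0143) were higher, while Xbp1 (0.09 ± 0.08), Herpud1 (0.16 ± 0.11) and Dnajb9 (0.15 ± 0.10) did not pass. All 8 markers of Kupffer cells and macrophages were called higher on 16-week HFD in the same average, with a median change of 1.03 and sums of 302 to 1079 CPM on 16-week HFD and 142 to 586 CPM on chow, and none was at 0 in a group. In the same average 5 of 6 endothelial markers were called higher, with sums of 211 to 301 CPM on 16-week HFD and 142 to 238 CPM on chow. Of 6 stellate cell and fibroblast markers 4 were called higher and 1 lower, with sums of 257 to 537 CPM on 16-week HFD and 237 to 320.2 CPM on chow. The most changed of these was Col1a1 at 2.22 ± 0.31. Of 6 hepatocyte markers 1 was called higher and 4 lower. The part of these cells in the result was not tested.

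The counts per time are given as a description. At 15 min 20 genes were higher and 1 lower on 16-week HFD, where 12.3% of all tested genes were called higher and 12.2% lower, and in 29 genes every HFD library lay above every chow library (24% of all tested genes). At 30 min 3 were higher and 4 lower, where 20.1% and 17.2% of all tested genes were, and 3 genes had every HFD library above the chow range (16.5% of all tested genes). At 60 min 12 were higher and 3 lower, against 10.9% and 11.5% of all tested genes, and 24 were without overlap (17.8% of all tested genes). At 120 min 8 were higher and 1 lower, against 14.5% and 13.6%, and 21 were without overlap (23.8%). The median change was 0.37, 0.07, 0.41 and 0.25 at 15, 30, 60 and 120 min. The median and the count of higher genes were thus lowest at 30 min, the time with 6 HFD libraries. No gene of the 40 was called in the test of whether the diets differ in their course, given below with its unadjusted count. Without replicate 3 of 16-week HFD at 15 min, the library with the highest acinar marker sum, 14 genes were called at that time in place of 21, and without chow replicate 3 there 12 were. At 60 min 9 were called without chow replicate 1 or 2 and 7 without HFD replicate 1, in place of 15. At 120 min 5 were called without replicate 3 of either diet, in place of 9. At 30 min 3 were called with HFD replicates 4 to 6 only, in place of 7. The correlation with GC content at 15 min was 0.13 to 0.33 on 16-week HFD and -0.23 to -0.12 on chow. At 30, 60 and 120 min the ranges of the diets overlapped in it.

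**Figure D4:**
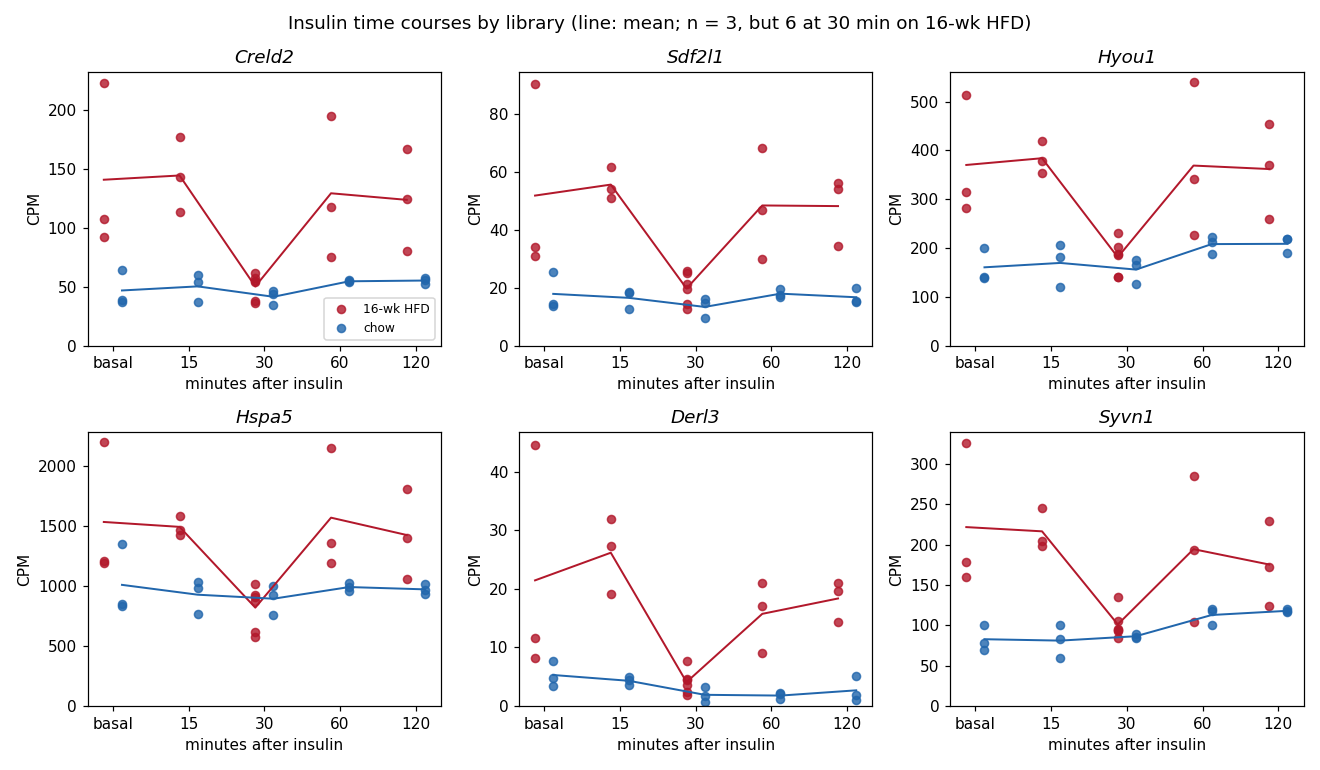
CPM (linear axes) of 6 genes in each library against time after insulin, with lines through the group means, on 16-week HFD and on chow. On 16-week HFD the 6 libraries at 30 min lie low, as for Creld2 at 36 to 61.5 CPM, near the chow libraries.

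On 16-week HFD part of the chaperone and isomerase genes were lower in the libraries taken 30 min after insulin than in those of other times. Each time had its own libraries, so that a course within a liver was not measured. Creld2 stood at 223, 108 and 92.2 CPM in basal livers and at 177, 114 and 143 CPM at 15 min. At 30 min its lowest, median and highest values over 6 libraries were 36, 54.4 and 61.5 CPM. It stood at 195, 118 and 75.6 CPM at 60 min and 80.2, 124 and 167 CPM at 120 min. All 6 libraries at 30 min thus lay below all 12 at the other times, basal included. On chow Creld2 had 38.7, 64.5 and 37.5 CPM in basal livers, 59.9, 54.4 and 36.8 CPM at 15 min, 43.6, 46.5 and 34.6 CPM at 30 min, 53.8, 54.7 and 55.5 CPM at 60 min and 57.9, 55.5 and 52.7 CPM at 120 min. On chow the ranges of neighbouring times overlapped, except that all libraries at 30 min lay below all at 60 min.

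Hspa5 showed a similar order on 16-week HFD. Its values were 2204, 1193 and 1209 CPM in basal livers, 1584, 1431 and 1469.9 CPM at 15 min, 574, 895 and 1019 CPM at 30 min (lowest, median and highest of 6), 2156, 1363 and 1196 CPM at 60 min and 1061, 1405 and 1814 CPM at 120 min. The highest of the 6 at 30 min was below the lowest at any other time. Derl3 had 31.9, 19.2 and 27.3 CPM at 15 min, 1.79, 3.95 and 7.69 CPM at 30 min (lowest, median and highest of 6), 21, 17 and 9.08 CPM at 60 min and 19.7, 14.3 and 21 CPM at 120 min. It too had no overlap between 30 min and the other insulin times. Syvn1 had 246, 199 and 205 CPM at 15 min, 83.9, 94.9 and 135 CPM at 30 min (lowest, median and highest of 6), 286, 194 and 104 CPM at 60 min and 124, 172 and 229.7 CPM at 120 min, and here the ranges at 30, 60 and 120 min overlapped.

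Against basal livers on 16-week HFD, 15 of the 40 genes were lower at 30 min, where 1.77% of all tested genes were called lower, and 0 were higher. They were 6 of 10 chaperones, 5 of 9 isomerases and lectin chaperones, 2 of 9 ERAD genes and 2 of 8 translocon genes. The changes were -1.49 ± 0.31 (adjusted p = 0.0134) for Creld2, -2.39 ± 0.54 (adjusted p = 0.017) for Derl3, -1.13 ± 0.28 (adjusted p = 0.0246) for Syvn1, -0.66 ± 0.16 (adjusted p = 0.0247) for the BiP co-chaperone Dnajb11, -1.39 ± 0.37 (adjusted p = 0.0332) for Sdf2l1, -1.03 ± 0.28 (adjusted p = 0.0338) for Hyou1 and -0.40 ± 0.10 (adjusted p = 0.0244) for P4hb. At 15, 60 and 120 min 0 of the 40 were called against basal livers on either diet, and at 30 min on chow 0 were called by edgeR, with 1 at an unadjusted p below 0.05. Tested over any of the 4 times, the course on 16-week HFD had 11 genes called, where 2.34% of all tested genes were, led by Creld2 (adjusted p = 0.0124), Dnajb11 (adjusted p = 0.0147) and Ssr1 (adjusted p = 0.0195). DESeq2 called 23 and limma on the deposited normalized values called 3, while edgeR on the compared groups alone called 0 and edgeR without replicates 1 to 3 at 30 min called 0. This count also moved with single libraries: it was 1, 2 and 6 without replicates 1, 3 and 6 at 30 min, 5 and 7 without replicates 1 and 3 at 15 min, 7 and 6 without replicates 2 and 3 at 120 min, and 19 without basal replicate 3. The course on chow had 0 called by edgeR, 5 at an unadjusted p below 0.05 and 3 called by DESeq2, where edgeR called 4.83% of all tested genes. The difference between the courses was called for 0 of the 40 by edgeR and by DESeq2, with 13 at an unadjusted p below 0.05 in edgeR, where 0.263% of all tested genes were called. The lower levels at 30 min on 16-week HFD and their absence from the calls on chow are therefore not shown to differ.

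The comparison with basal livers rested on basal replicate 1, which stood high: without it 0 of the 40 genes were called at 30 min, and 4 without basal replicate 2. The 6 libraries at 30 min were therefore also set against the 9 at 15, 60 and 120 min, a comparison chosen after the values had been seen. In it 24 of the 40 genes were lower and 0 higher, where 3.16% of all tested genes were called lower and 3.53% higher, and all 40 fold changes were negative, with a median of -0.32. All 6 libraries at 30 min lay below all 9 at the other insulin times in 17 of the 40 genes, as was so for 0.732% of all tested genes. In 10 of these 17 they also lay below all 3 basal libraries. Lower were 8 of 10 chaperones, 8 of 9 isomerases and lectin chaperones and 4 of 8 translocon genes. So were 3 of 9 ERAD genes and 1 of 4 sensors and transcription factors.

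Among the chaperones Dnajb11 changed by -0.72 ± 0.13 (adjusted p = 0.00118), Hyou1 by -1.04 ± 0.22 (adjusted p = 0.00483), Sdf2l1 by -1.36 ± 0.30 (adjusted p = 0.00636) and Hspa5 by -0.87 ± 0.19 (adjusted p = 0.00652). Creld2 changed by -1.40 ± 0.25 (adjusted p = 0.00124) and Pdia6 by -0.78 ± 0.16 (adjusted p = 0.0033). Of the ERAD genes, Derl3 (-2.27 ± 0.46, adjusted p = 0.00347), Sel1l (-0.63 ± 0.14, adjusted p = 0.00739) and Syvn1 (-0.95 ± 0.22, adjusted p = 0.00978) were lower. Xbp1 (-0.43 ± 0.10, adjusted p = 0.00966) was the sensor or factor that passed, while Ern1 (-0.04 ± 0.16), Eif2ak3 (-0.11 ± 0.15) and Atf6 (-0.20 ± 0.10) did not. Ssr1 changed by -0.32 ± 0.06 (adjusted p = 0.00181). Dnajb9 (-0.36 ± 0.14) and Herpud1 (-0.11 ± 0.15) were not called. On chow the same comparison called 0 of the 40 by edgeR and by DESeq2, with 2 at an unadjusted p below 0.05 in edgeR and a median of -0.12, where 0.384% of all tested genes were called. The difference between the diets was called for 0 of the 40 by both tools, with 18 at an unadjusted p below 0.05 in edgeR, where 0.0284% of all tested genes were called.

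The 6 libraries at 30 min fell into 2 sets. Those numbered 1 to 3 correlated with GC content over all genes at 0.19 to 0.22, and those numbered 4 to 6 at -0.22 to -0.13. Among the 9 libraries at the other insulin times, replicate 3 at 60 min stood at -0.24 and the rest at 0 to 0.33. That replicate was the lowest of its 3 libraries in 26 of the 40 genes. Using replicates 4 to 6 only, 6 of the 24 calls were kept, and all 40 fold changes stayed negative with a median of -0.31. In that fit Creld2 changed by -1.27 (adjusted p = 0.0206) and Hspa5 by -0.66 (adjusted p = 0.1). Using replicates 1 to 3 only, 28 genes were called, with a median of -0.50. There Eif2ak3 (0.08) and Os9 (0.005) turned positive, and neither was called. Without replicate 2 at 30 min, which had 7432 CPM of acinar markers against 7.30 to 393 CPM in the other 5, the count was 25. Of 6 stellate cell and fibroblast markers 2 were higher at 30 min than at the other insulin times, Col1a1 (1.23 ± 0.36) and Col3a1 (0.92 ± 0.28), with sums of 320.3 to 537 CPM at 30 min and 257 to 381 CPM at the other times, and their part in the result was not tested. Against basal livers, the count of 15 became 23 with replicates 1 to 3 only, 4 with replicates 4 to 6 only, 5 and 7 without replicates 1 and 3, and 0 when only the groups compared were fitted.

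**Figure D5:**
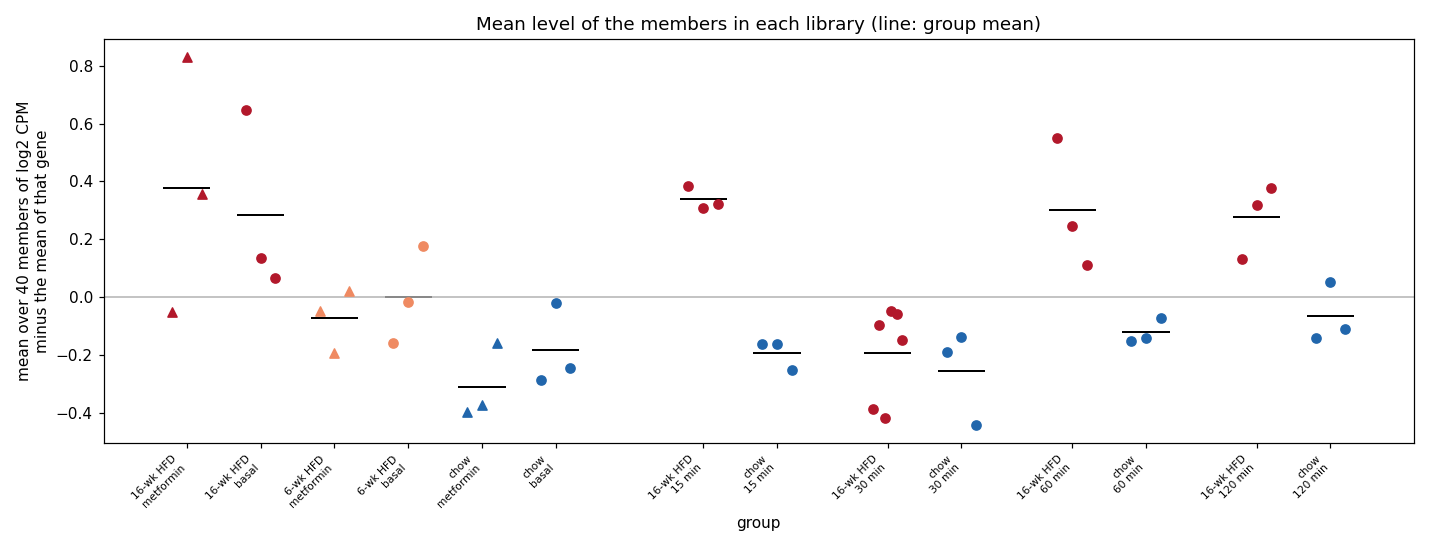
Mean log2 deviation of the 40 genes from their means over all libraries, for each library (points) by group (lines are group means). On 16-week HFD the libraries taken 30 min after insulin lie between -0.418 and -0.047, below the other 9 libraries with insulin on 16-week HFD (0.112 to 0.55) and within the range of the chow libraries.

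Genes whose promoter windows held an ERSE can be set beside those without it, as a description only. Between basal livers, 5 of the 9 ERSE genes and 10 of the 22 other genes with a window were higher on 16-week HFD than on chow. Of all tested genes, 16% were called higher there. Under metformin the counts of ERSE and other genes were 8 of 9 and 18 of 22, against 11.2% of all tested genes. At 30 min against the other insulin times on 16-week HFD, 9 of 9 and 11 of 22 were lower. The share of all tested genes called lower there was 3.16%, and this comparison was chosen after its values had been seen. Genes measured in the same libraries are not independent, so that these counts do not test the role of the element.

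Other genes of the secretory pathway were taken from lists that do not hold the 40 genes. Between 16-week HFD and chow basal livers, where 16% of all tested genes were called higher and 16.3% lower, the oligosaccharyltransferase, which attaches N-glycans, had 7 of 10 subunits higher and 0 lower, with Ddost at 0.87 ± 0.13 and Magt1 at 0.67 ± 0.15. Of 18 other ERAD genes, 2 were higher, 7 were lower and 9 were not called. Rnf139, an ER ubiquitin ligase, changed by -0.51 ± 0.07, and Ufd1l, a cofactor of the p97 segregase, by -0.62 ± 0.09. Other folding enzymes had 6 of 16 higher and 2 lower, among them Txndc5 at 0.59 ± 0.12 and Tmx1 at -0.49 ± 0.11, both thioredoxin-like. Of 15 genes of protein targeting and the signal peptidase 1 was higher and 2 lower, and of 20 genes of COPII and Golgi transport 4 were higher and 1 lower, shares near or below those of all genes. The coat subunits Sec23a and Sec23b had opposite signs, at -0.62 ± 0.10 and 0.55 ± 0.14.

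Of 15 genes of the PERK branch and the integrated stress response, 5 were higher and 2 lower in the same comparison. Chac1, a glutathione-degrading enzyme induced by ATF4, changed by 2.65 ± 0.56, and Vldlr, a lipoprotein receptor, by 1.83 ± 0.37. Of 11 other regulators of XBP1 and ATF6, 6 were higher and 1 lower, with Tmbim6, an ER membrane protein that restrains IRE1, at 0.65 ± 0.10 and Mbtps2, the site-2 protease that cuts ATF6, at -0.70 ± 0.13. Between 16-week HFD and chow under metformin, where 11.2% of all tested genes were called higher and 9.25% lower, 6 of 10 oligosaccharyltransferase subunits, 8 of 16 other folding enzymes and 9 of 15 targeting genes were higher and none of them lower. Of 20 transport genes 8 were higher and 1 lower, of 18 other ERAD genes 1 was higher and 2 lower, of 15 genes of the PERK list 3 were higher and 1 lower, and of 11 other regulators 3 were higher and 1 lower. At 30 min against the other insulin times on 16-week HFD, where 3.16% of all tested genes were called lower and 3.53% higher, 4 of 10 oligosaccharyltransferase subunits, 7 of 20 transport genes, 5 of 15 targeting genes, 4 of 16 other folding enzymes, 2 of 18 other ERAD genes and 1 of 11 other regulators were lower and none higher, with Rpn1 at -0.46 ± 0.08 and Lman1, a cargo receptor of glycoproteins, at -0.41 ± 0.06. Of the PERK list 2 of 15 were higher there and 0 lower: Ddit4, an inhibitor of mTORC1, at 1.09 ± 0.26 and Trib3, a pseudokinase induced by ATF4, at 0.88 ± 0.23.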

How the data were processed

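The authors deposited raw read counts per gene, which were used for every reported result, and signal values, the same counts after normalization with CQN and DESeq2 1.0.18 per the labels, which were used in an alternative only. Per the labels' protocols, polyA RNA was made into TruSeq libraries and read as pairs of 40 to 50 bases; per the submitters' processing notes, TopHat 1.4.0, HTSeq and build mm9 were used, with no HTSeq version given in the sources used here. Positions and exon lengths come from the gene models that the authors deposited, as start and end positions.

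The filter was filterByExpr at a minimum count of 10, which kept 14067 of 23227 genes. All 45 libraries were scaled by TMM and fitted together in edgeR 4.0.16 (R 4.3.3) with a coefficient for each of 14 groups and the quasi-likelihood F test. Benjamini-Hochberg adjustment ran over all genes tested in each comparison, with calls at a false discovery rate below 0.05. SEs were obtained as the size of the log2 fold change over the root of its F statistic and are approximate at low counts. Simulated counts with known changes were used to test the fit. No library was left out, and depth was 18.2 to 50.3 M counts. The lowest chi-square per degree of freedom between replicates of a group was 8.84, so that none was counted as a duplicate.

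The members and lists were chosen with earlier results of these data known. Per comparison and role, up to 3 called genes with the smallest adjusted p and any that went the other way are named, and Hspa5, Creld2, Sdf2l1, Hyou1, Dnajb9, Herpud1, Xbp1 and Ern1 are given for diet and metformin. The comparison of 30 min with the other insulin times was added after its values were seen. Of the other lists, the genes with the smallest adjusted p are named. Alternatives were RLE scaling, no filter, removal of exon length and GC trends (spline, 4 degrees of freedom), only the groups compared, a replicate block, left-out libraries, DESeq2 1.42.0, and limma 3.58.1 on log2 of the deposited signal values plus 1. Replicate numbers are shared between groups without a label that says what they mark. Same-numbered metformin and basal libraries deviated together on both HFD diets, with correlations of 0.24, 0.15 and 0.12 after 16 weeks and 0.41, 0.16 and 0.3 after 6 weeks. They were read as pairs on that ground only, and only in the alternatives with the replicate block. The results as reported used no pairs. Chow basal and 6-week HFD metformin libraries met the same criterion without being compared.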

Additional observations from a re-analysis of the deposited data

Results flagged for a closer look

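Metformin had a different effect on 16-week HFD than on chow for 2 of the 40 genes by the interaction term of edgeR's quasi-likelihood test, a share near the 4.96% of all tested genes called. The difference of log2 fold changes was 0.57 for Derl2 (adjusted p = 0.0432), which encodes a derlin of ERAD, and 0.98 for Dnajb9 (adjusted p = 0.0489), the BiP co-chaperone. All 3 metformin libraries lay above all 3 basal libraries on 16-week HFD for Derl2, and all 3 lay below on chow for Dnajb9. Both calls were lost under several alternatives, and over all alternatives the adjusted p of Derl2 was 0.0109 to 0.243 and that of Dnajb9 0.0101 to 0.284.

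Among the 6 libraries at 30 min of insulin on 16-week HFD, replicate 2 had 171 CPM of Sec61a1, the α subunit of the translocation channel, and stood apart from the other 5 by Dixon's criterion. This was 1 of 40 genes examined in that group, and chance alone flags about 1 in 20. The same library had 7432 CPM of pancreatic acinar markers. The part of these in the Sec61a1 value was not tested.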

How the results depend on the processing

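Counts below are of the 40 genes called, as reported and then under an alternative. Alternatives that leave out replicates 1 to 3 at 30 min, and all alternatives of the comparison of 30 min with the other insulin times, were chosen after seeing the data; the causes of the moves were not tested. Leaving out single libraries gave 11 to 22 for 16-week HFD against chow in basal livers (20 as reported), 0 to 2 for 6-week HFD against chow (3), 0 to 3 for 16 against 6 weeks (3), 19 to 32 for 16-week HFD against chow under metformin (30), 6 to 15 for metformin on 16-week HFD (10), 0 to 5 for metformin by diet at 16 weeks (2) and 1 to 19 for the insulin course on 16-week HFD (11). Without both libraries numbered 1 of 16-week HFD, basal and metformin, these counts were 13 for basal 16-week HFD, 1 for 16 against 6 weeks, 20 for metformin on 16-week HFD, 8 for metformin by diet and 22 for the course on 16-week HFD.

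A fit of only the groups compared gave 5 for 6-week HFD against chow, 1 for 16 against 6 weeks, 0 for 16-week HFD against chow under metformin, 3 for metformin on chow, 0 for metformin on 16-week HFD, 0 for metformin by diet, 2 for the course on chow, 0 for the course on 16-week HFD and 1 for 30 min against the other times on chow. Without the filter, 6-week HFD against chow, 16 against 6 weeks and metformin by diet had 1 each. With the exon length trend removed, metformin on 6-week HFD had 0, the course on chow 2 and 30 min against the other times on chow 1. With the GC trend removed as well, these were 0, 2 and 1, metformin on 16-week HFD had 5 and metformin by diet 0; Erp29 under metformin on 16-week HFD reversed to -0.0344. DESeq2 gave 3 for the course on chow and 23 for that on 16-week HFD, and limma on the deposited normalized values gave 3, 3 and, for 30 min against the other times on chow, 2. Without replicates 1 to 3 at 30 min, the course on 16-week HFD had 0 and 30 min against the other times 6. Without replicates 4 to 6, insulin by diet had 1 and 30 min against the other times by diet 6.

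With the replicate block, 16 against 6 weeks had 1, the course on 16-week HFD 17, insulin by diet 1 and 30 min against the other times by diet 4. With the block and the length trend removed, these were 1, 17, 1 and 7, metformin on 6-week HFD had 0, the course on chow 2 and 30 min against the other times on chow 1. Among the groups compared here, the numbers paired metformin with basal libraries on both HFD diets, by correlation, and there the block gave 11 and 1 calls in place of 10 and 1. The same criterion was met by chow basal and 6-week HFD metformin libraries (correlations of 0.29, 0.13 and 0.25), which no comparison sets against each other. The other pairs of groups checked did not meet it.

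Over single genes, 258 results gave 4902 values under the alternatives. Of these, 4275 kept their direction and side of the threshold, 515 kept their direction but no longer passed, and 15 newly passed. A further 96 values changed sign without being called either way, and 1 changed sign where a fit had called the gene. With mostly 3 libraries per group, changes that miss the threshold are not shown to be absent.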
